A study of Mus musculus with 6 samples.

Results

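The Gimap genes encode GTPases of immunity-associated proteins, a family of GTP-binding proteins of lymphocytes and other blood cells. Every row of the deposited table whose symbol starts with Gimap was taken, which gave 8 genes of 38926 rows: Gimap1, Gimap3, Gimap4, Gimap5, Gimap6, Gimap7, Gimap8 and Gimap9. The members were chosen by symbol and by no measured value, but the family as a whole was proposed with the FPKM and fold changes of the same contrast known. Its values are therefore a description, and its p-values, which come from the fit over all genes, are no independent support for a change of the family.

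GIMAP proteins share a GTPase domain of the AIG1 type, and most are anchored in or recruited to membranes inside the cell. In mice they are best known for keeping lymphocytes alive: loss of Gimap1 or Gimap5 depletes mature T and B cells, and loss of Gimap5 also impairs blood stem cells. The genes lie side by side in one cluster, as they do in other mammals, and their transcripts are found in lymphocytes, in blood stem and progenitor cells and in endothelium.

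The libraries came from LSK cells (Lin-Sca1+cKit+), the fraction of marrow with stem and early progenitor cells, sorted from femur and tibia of C57BL/6 mice 8 to 12 weeks old. One group of 3 libraries came from mice injected on 3 days in a row with haloperidol, an antipsychotic that blocks dopamine receptors, and the other 3 from mice given DMSO as the vehicle, with the drug or DMSO also present while cells were sorted. The labels give wild-type animals in both groups and do not say whether replicates are separate mice, so p-values measure the spread between these libraries, which may be technical. Each library held 8523556 to 8969076 reads on genes, a depth worked out from the step that 1 read makes in low values, and the first principal component of log2(FPKM + 1), with 51.6% of the variance, separated the groups. The sources used here give no day of sorting or sequencing, and a batch that ran with the treatment cannot be told apart from it.

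The 8 genes occupy 123.7 kb of mouse chromosome 6, from 48647186 to 48770851 in GRCm38 (the build named mm10 in the submitters' processing notes). In the order of the chromosome they are Gimap8, Gimap9, Gimap4, Gimap6, Gimap7, Gimap1, Gimap5 and Gimap3. Gimap6 and Gimap3 are read from the minus strand and the other 6 from the plus strand. The closest neighbours are Gimap1 and Gimap5, which are 2.4 kb apart, and Gimap9 lies between Gimap8, 15.2 kb away, and Gimap4, 5.5 kb away. Promoter sequence is shown for Gimap1 and Gimap6, the most abundant members, and for Gimap9, the one whose mean was not lower with haloperidol. Each is the 250 bases before a start that RefSeq gives for the gene in GRCm38.p6, written 5′ to 3′ on the strand of the gene. Capitals mark matches to the motifs searched. The windows cover chr6:48738797-48739046 (plus strand), chr6:48708245-48708494 (minus strand) and chr6:48675885-48676134 (plus strand). The window of Gimap9 reaches into the gene, whose first base is 48676121.
Gimap1: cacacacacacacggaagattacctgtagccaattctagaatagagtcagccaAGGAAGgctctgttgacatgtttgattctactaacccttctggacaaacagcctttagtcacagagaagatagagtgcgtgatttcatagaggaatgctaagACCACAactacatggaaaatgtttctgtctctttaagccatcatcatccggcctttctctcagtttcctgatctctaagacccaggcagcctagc
Gimap6: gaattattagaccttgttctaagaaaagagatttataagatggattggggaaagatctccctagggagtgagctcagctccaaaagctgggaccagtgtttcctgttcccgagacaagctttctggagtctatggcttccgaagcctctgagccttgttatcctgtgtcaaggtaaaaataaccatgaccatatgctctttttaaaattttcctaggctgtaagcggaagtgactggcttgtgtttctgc
Gimap9: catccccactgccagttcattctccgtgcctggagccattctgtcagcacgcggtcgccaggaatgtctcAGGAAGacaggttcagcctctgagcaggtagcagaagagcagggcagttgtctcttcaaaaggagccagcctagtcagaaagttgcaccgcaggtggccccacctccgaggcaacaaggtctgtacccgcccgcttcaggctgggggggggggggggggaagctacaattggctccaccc

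Motifs of 6 lymphoid and blood cell factor families were searched by exact letters on both strands in the 9 RefSeq windows of the 8 genes. Gimap8 has 2 starts, whose windows overlap and both run past the first base of the gene at 48647186. AGGAAG, a core of ETS factor sites, was in 7 of the 9 windows, against 29.5% of 32851 such windows of all genes. In the printed windows it is the capitals of Gimap9 and the first capitals of Gimap1, and Gimap6 has no match. TGTGGT, the core of RUNX sites, was in 3 of the 9 (Gimap4, Gimap7 and Gimap1, where the second capitals are its reverse complement) against 14.0% of all windows. GTAAACA of FOXO sites was in 1 (Gimap3) against 3.17%. AGATAA of GATA sites, CAGCTG of E boxes and TGGGAA of Ikaros sites were in 0 of the 9, against 9.99%, 13.0% and 21.6% of all windows. AGGAAG was thus present upstream both of genes that were lower with haloperidol and of Gimap9, and absent upstream of Gimap6. A match is a stretch of letters and no evidence of binding. Other spellings of these sites were not searched, so a window without a match may still hold one.

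Gimap6 and Gimap1 were the most abundant members and both fell. Levels are FPKM, read counts divided by gene length and library scale, as the authors deposited them, and the test was limma on log2(FPKM + 1) over all 11436 genes with a mean of at least 1 FPKM, with Benjamini-Hochberg adjusted p-values and a threshold of 0.05. Gimap6, whose protein binds the autophagy protein GABARAPL2, was at 98.3, 91.2 and 98.5 FPKM in the DMSO libraries and at 51.4, 57.9 and 55.4 FPKM in the haloperidol libraries. All haloperidol libraries lay well below all DMSO libraries. The means were 96.0 ± 4.18 and 54.9 ± 3.30 FPKM (SD, n = 3 each), for a log2 fold change of -0.80 (SE 0.06, limma adjusted p = 1.05e-04). In bulk libraries, fewer cells that express a gene and less RNA per cell cannot be told apart.

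Gimap1 is needed for the development and survival of T and B cells in mice. It was at 77.5, 71.3 and 73.3 FPKM with DMSO and at 41.5, 40.8 and 41.6 FPKM with haloperidol. The haloperidol libraries were within 1 FPKM of each other and far under the DMSO range. The means of 74.0 ± 3.15 and 41.3 ± 0.439 FPKM (SD, n = 3 each) gave a log2 fold change of -0.83 (SE 0.05, limma adjusted p = 4.55e-05), so Gimap1 stood at 55.8% and Gimap6 at 57.2% of its DMSO mean. The ratio of Gimap6 to Gimap1 FPKM was 1.27, 1.28 and 1.34 with DMSO and 1.24, 1.42 and 1.33 with haloperidol, and these ranges overlap. In GENCODE M21 the antisense gene Gimap1os shares 32.4% of the 50-base stretches of Gimap1 transcripts, and the library kit keeps no strand, so reads from the shared part cannot be told apart.

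**Figure D1:**
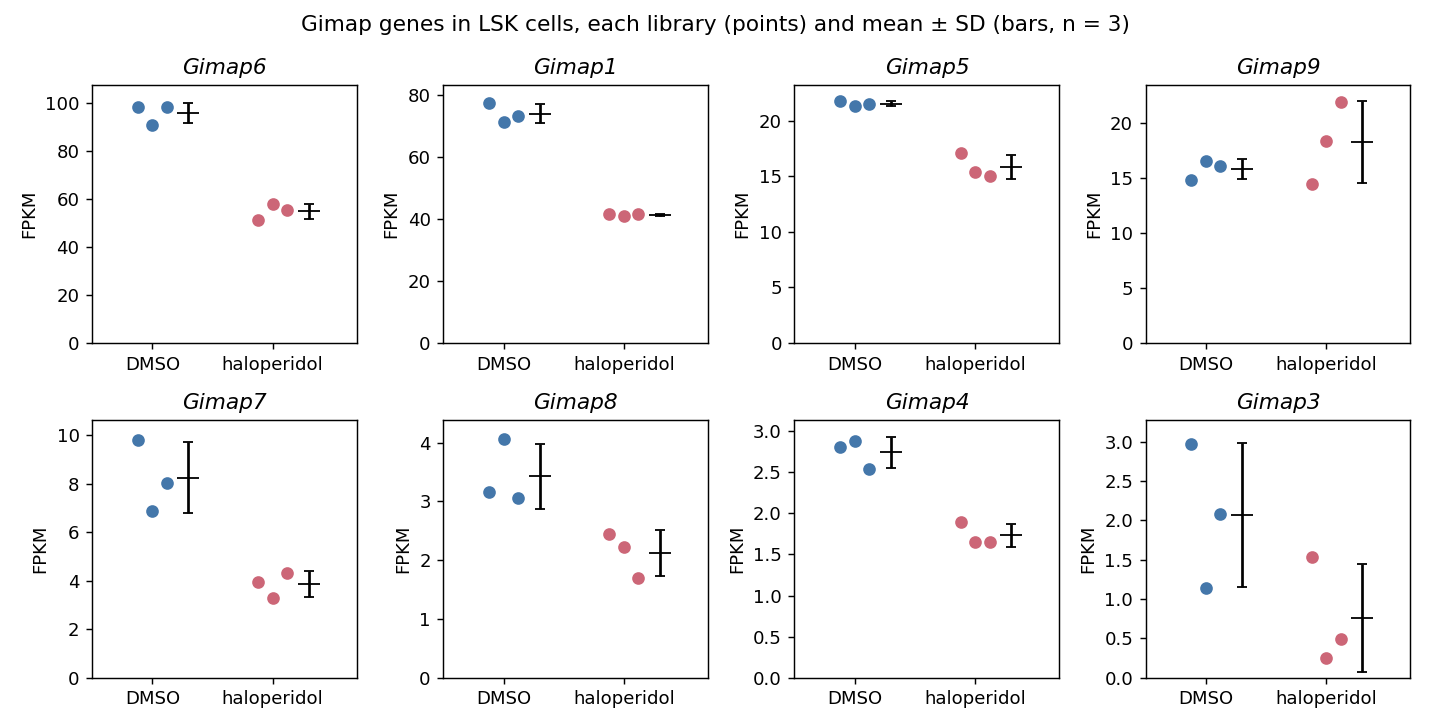
FPKM (y axis, from 0 in each panel) of the 8 Gimap genes in the 3 DMSO libraries (blue) and the 3 haloperidol libraries (red), ordered by DMSO level, with the mean and SD beside the points. The groups do not overlap for Gimap6, Gimap1, Gimap5, Gimap7, Gimap8 and Gimap4, and they overlap for Gimap9 and Gimap3.

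Gimap5 and Gimap3 encode the most similar pair of proteins in the family. Gimap5, a lysosomal membrane protein whose loss causes lymphopenia in rats and mice, fell less than Gimap6 and Gimap1. It was at 21.8, 21.3 and 21.5 FPKM with DMSO and at 17.1, 15.4 and 15.03 FPKM with haloperidol. The DMSO libraries were close together and every haloperidol library was below them. The means were 21.5 ± 0.227 and 15.8 ± 1.10 FPKM (SD, n = 3 each), for a log2 fold change of -0.42 (SE 0.06, limma adjusted p = 0.00258).

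Gimap3, which in mice is a membrane protein close in sequence to Gimap5, had the fewest reads. It had 24, 9 and 17 reads in the DMSO libraries and 12, 2 and 4 in the haloperidol libraries, which are 2.97, 1.14 and 2.08 FPKM and 1.54, 0.248 and 0.496 FPKM. DMSO replicate 2 was below haloperidol replicate 1, so the groups overlapped. Its log2 fold change of -0.82 (SE 0.30, 95% interval -1.50 to -0.14, limma adjusted p = 0.0783) did not pass. It passed in 3 of 15 other settings: without haloperidol replicate 1 (adjusted p = 0.0274), with the replicate number as a block (adjusted p = 0.0127) and with limma voom on recovered reads (adjusted p = 0.0356). The mean of Gimap3 reached 1 FPKM only in the DMSO group, 2.06 against 0.761 FPKM. The FPKM of Gimap3 rest on a length of 906 bases, where the exons of GENCODE M21 cover 2577 bases, and 7.52% of the 50-base stretches of its transcripts also occur in Gimap5, the only one of 28 pairs of members that share any.

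Gimap7, Gimap8 and Gimap4 were expressed at under 10 FPKM and also fell. Gimap7, whose human counterpart can stimulate GTP hydrolysis by GIMAP2, was at 9.81, 6.89 and 8.04 FPKM with DMSO and at 3.94, 3.28 and 4.33 FPKM with haloperidol. The groups were apart, and the mean with haloperidol was 46.7% of that with DMSO. Its log2 fold change of -0.92 (SE 0.13, limma adjusted p = 0.00192) had an interval that overlaps those of Gimap6, Gimap1, Gimap3, Gimap8 and Gimap4. The reads behind it were 279 in all in DMSO and 129 in haloperidol.

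Gimap8, the longest member, with several GTPase domains in a row, was at 3.16, 4.06 and 3.06 FPKM with DMSO and at 2.45, 2.22 and 1.69 FPKM with haloperidol. Gimap4, which affects the death of T cells in mice and rats, was at 2.81, 2.88 and 2.53 FPKM with DMSO and at 1.90, 1.65 and 1.65 FPKM with haloperidol. In both genes the highest haloperidol library was under the lowest DMSO library. Their log2 fold changes were -0.51 (SE 0.14, limma adjusted p = 0.0281) and -0.45 (SE 0.11, limma adjusted p = 0.0171). Both calls ended without DMSO replicate 2 (adjusted p = 0.101 and 0.0661) and without haloperidol replicate 2 (adjusted p = 0.0563 and 0.0532), and that of Gimap8 also without DMSO replicate 1 (adjusted p = 0.0504), without haloperidol replicate 3 (adjusted p = 0.0761) and when low values were not filtered (adjusted p = 0.0862).

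Gimap9 did not follow the others. It was at 14.8, 16.6 and 16.1 FPKM with DMSO and at 14.5, 18.4 and 21.9 FPKM with haloperidol. One haloperidol library was below all DMSO libraries and the other two were above them. The means were 15.9 ± 0.931 and 18.3 ± 3.72 FPKM (SD, n = 3 each), with 693 and 795 reads in all, and the log2 fold change of 0.18 (SE 0.13, limma adjusted p = 0.347) did not pass. Its 95% interval ran from -0.11 to 0.47, above the intervals of Gimap6 (-0.93 to -0.66), Gimap1 (-0.94 to -0.71), Gimap5 (-0.57 to -0.28), Gimap7 (-1.22 to -0.63), Gimap8 (-0.82 to -0.20) and Gimap4 (-0.70 to -0.21). The difference between Gimap9 and another member was not tested, since Gimap9 was singled out by its values. Without haloperidol replicate 1 its log2 fold change was 0.33 (adjusted p = 0.0508) and without haloperidol replicate 3 it was 0.04 (adjusted p = 0.804).

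**Figure D2:**
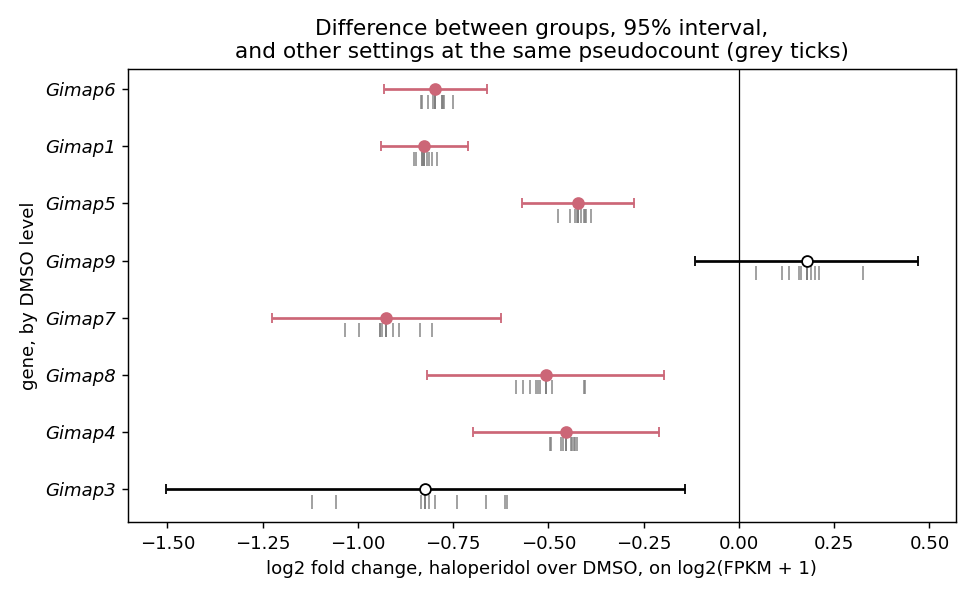
Log2 fold change of each Gimap gene, haloperidol over DMSO on log2(FPKM + 1) (x axis), with its 95% interval, by DMSO level (y axis). Filled red points passed the threshold and open black points did not, and grey ticks give the other settings at the same pseudocount, in which Gimap9 stayed between 0.04 and 0.33 while the other 7 genes stayed below 0.

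Of the 8 members, 6 fell, 0 rose and 2 did not pass, where 13.0% of all genes tested fell and 11.5% rose. The haloperidol libraries were all below the DMSO libraries for the same 6 genes, which held for 22.1% of all genes tested, with 21.0% all above. The median log2 fold change was -0.65 over the 8 members and 0.00 over all genes. The 6 that fell had means of at least 1 FPKM in both groups. The family and this contrast were chosen together, so the count is only a description.

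The order of the levels was nearly the same in both groups. By DMSO mean it ran from Gimap6 and Gimap1 through Gimap5, Gimap9, Gimap7, Gimap8 and Gimap4 to Gimap3 at 2.06 ± 0.914 FPKM, and the ranges of Gimap4 and Gimap3 overlapped. With haloperidol Gimap9 had a higher mean than Gimap5, with overlapping ranges, and Gimap8 and Gimap4 overlapped as well. Gimap6 in DMSO was above 93.1% of all genes tested and Gimap3 above 13.2%, both by mean FPKM. FPKM of different genes depend on the gene length behind them, which equals the exon length in GENCODE M21 for 3 of the 8 members.

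The summed level of the 8 genes was 231, 215 and 225 FPKM in the DMSO libraries and 134, 140 and 142 FPKM in the haloperidol libraries. These sums do not overlap, and the haloperidol mean was 62.0% of the DMSO mean. Gimap6 and Gimap1 together made up 76.1%, 75.4% and 76.3% of the sum with DMSO and 69.1%, 70.5% and 68.2% with haloperidol. The share of Gimap9 was 6.41%, 7.72% and 7.17% with DMSO and 10.8%, 13.2% and 15.4% with haloperidol. The share of Gimap5 was 9.42% to 9.91% with DMSO and 10.6% to 12.7% with haloperidol. The shares of both genes did not overlap between the groups, but a share also depends on the sum, which was lower with haloperidol. Haloperidol replicate 1 had less Gimap9 than any DMSO library, 14.5 FPKM, and a larger share of it.

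**Figure D3:**
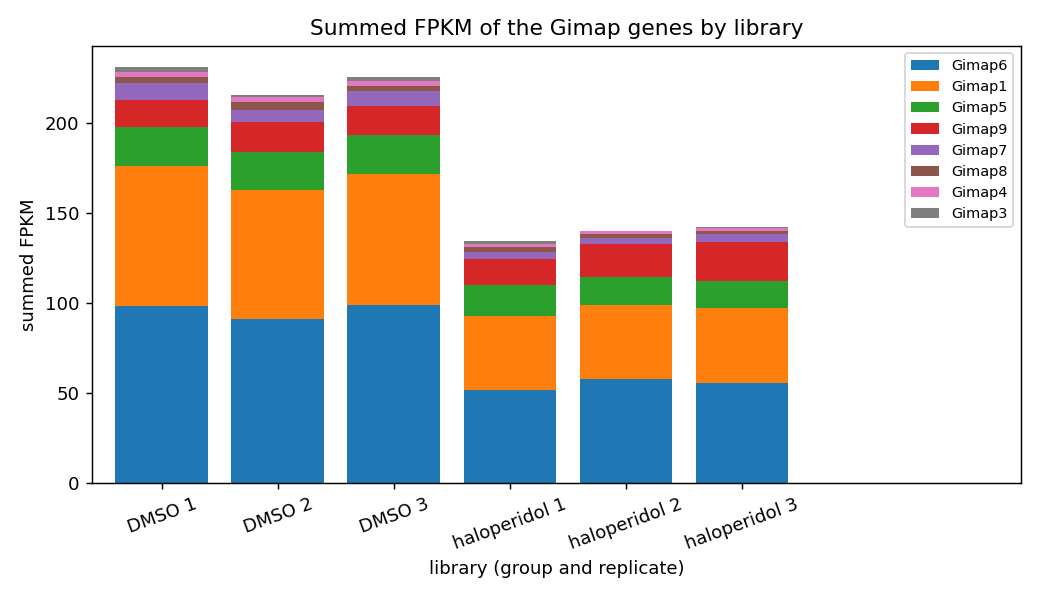
Summed FPKM of the 8 Gimap genes (y axis) in each library (x axis, group and replicate), stacked by gene. The DMSO bars reach 215 to 231 FPKM and the haloperidol bars 134 to 142 FPKM, with the Gimap9 layer the only one whose mean was not lower with haloperidol.

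The genes on both sides of the cluster were looked at next. Rows with predicted or clone names were left out at first, which removes AI854703 and Gm5111, both nearer to the cluster than some of the rows kept and both lower with haloperidol. Of the 5 nearest other rows on each side, 7 were abundant enough to test and 0 passed the threshold by limma, with 3 at an unadjusted p below 0.05 and 1 past the threshold by limma voom on recovered reads. On the near side of Gimap8 these include Zfp775, a zinc finger gene 25.6 kb away, at 2.63 ± 0.163 FPKM with DMSO and 2.45 ± 0.144 FPKM with haloperidol (SD, n = 3 each, limma adjusted p = 0.629). Repin1, a zinc finger gene 48.1 kb away, was at 23.1 ± 0.730 and 21.3 ± 1.45 FPKM (limma adjusted p = 0.236). Beyond Gimap3, the membrane protein genes Tmem176b and Tmem176a, 63.0 and 70.6 kb away, were abundant, at 279 ± 10.6 and 257 ± 8.62 FPKM and at 177 ± 7.76 and 170 ± 5.15 FPKM (limma adjusted p = 0.116 and 0.459). For Tmem176b all haloperidol libraries were below the DMSO libraries (limma unadjusted p = 0.0414), and for Tmem176a the groups overlapped. Rarres2, the chemerin gene, had all haloperidol libraries above the DMSO libraries (1.90 ± 0.801 and 3.25 ± 0.757 FPKM, limma adjusted p = 0.0946), and Aoc1, a diamine oxidase gene, had them all below (1.71 ± 0.469 and 0.811 ± 0.324 FPKM, limma adjusted p = 0.0523). Aoc1 is the one that passed by voom (adjusted p = 0.0143), and it passed in 5 of 15 other settings in all. These 7 genes also include Lrrc61 at 5.25 ± 0.329 and 5.10 ± 0.593 FPKM. Of the other 3, Doxl2 and Svs1 were at 0 in every library and Atp6v0e2 had means of 0.0613 and 0.0409 FPKM.

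Within 500 kb of the cluster centre, 14 rows outside the family were tested, predicted names included, of which 3 fell and 1 rose. That is 28.6%, near the 24.5% of all genes tested that passed. Those that fell are Gm5111, AI854703 and the zinc finger gene Zfp467, and the one that rose is Malsu1, a gene of mitochondrial ribosome assembly, all named after their values were seen. Gm5111, which RefSeq places 56.6 kb before Gimap8, was at 30.9, 28.0 and 31.6 FPKM with DMSO and at 15.6, 15.9 and 13.7 FPKM with haloperidol. Its groups were far apart, with a log2 fold change of -0.96 (SE 0.08, limma adjusted p = 1.38e-04), while Repin1 and Zfp775, which lie between it and the cluster, did not pass. AI854703, 13.5 kb before Gimap8, had a log2 fold change of -0.54 (SE 0.17, limma adjusted p = 0.0464), a call that held in 4 of 15 other settings and ended without any one of 5 libraries, the exception being haloperidol replicate 2 (adjusted p 0.0874 to 0.118). The calls of Zfp467 and Malsu1 held in 11 and 14 of 16 other settings, and that of Gm5111 in all 16.

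**Figure D4:**
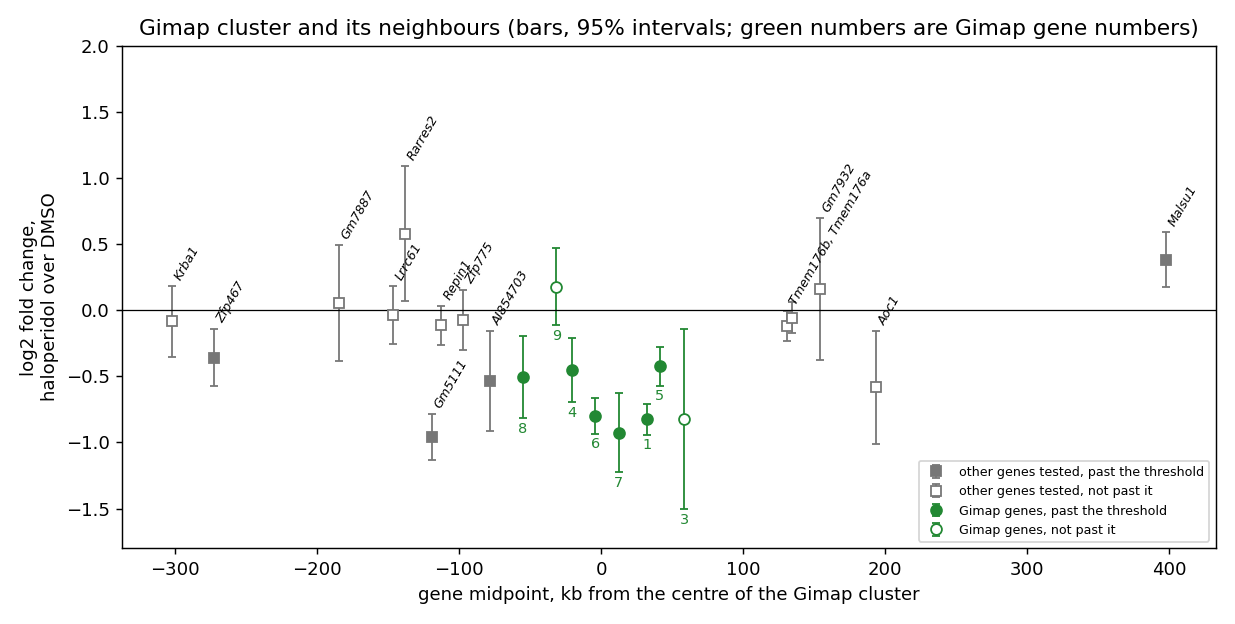
Log2 fold change, haloperidol over DMSO (y axis), with 95% intervals, against the distance of each gene's midpoint from the centre of the Gimap cluster in kb (x axis), for Gimap genes (green circles, labelled by number) and the 14 other genes tested within 500 kb (grey squares). Filled symbols passed the threshold: 6 Gimap genes, Gm5111, AI854703 and Zfp467 lie below 0 and Malsu1 above. Among the open symbols are Gimap3 at -0.82 and Gimap9, between Gimap8 and Gimap4, at 0.18.

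Genes of proteins that bind GIMAP proteins or act with them passed about as often as all genes. Of 15 such genes, from the BCL2 family, the LC3 and GABARAP family of autophagy, GSK3 and beta-catenin, 14 were tested, 3 fell, 1 rose and 10 did not pass, so 28.6% passed against 24.5% of all genes tested. Gabarapl1, a GABARAP family member, fell from 119 ± 6.96 to 81.5 ± 3.43 FPKM, and Map1lc3a, which encodes an LC3 protein, from 37.6 ± 2.39 to 26.3 ± 1.86 FPKM. Bcl2l1, the gene of the survival protein BCL-XL, fell from 9.51 ± 0.372 to 7.02 ± 0.550 FPKM, and Bcl2l11, the gene of the death-promoting BIM, rose from 48.3 ± 1.72 to 63.6 ± 4.11 FPKM. The adjusted p of these 4 by limma was at most 0.00817. Gabarapl2, whose protein binds GIMAP6, was at 59.96 ± 1.75 and 53.2 ± 3.61 FPKM (limma adjusted p = 0.0727). Bcl2 was at 14.4 ± 0.414 and 14.4 ± 0.445 FPKM (limma adjusted p = 0.948), and Gsk3b, the kinase regulated by GIMAP5 in T cells, at 5.11 ± 0.349 and 4.81 ± 0.288 FPKM (limma adjusted p = 0.579). The median log2 fold change of the 14 was -0.07.

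Of 13 genes of interleukin 7 signalling and resting lymphocytes, 12 were tested, 3 fell and 2 rose, where 13.0% of all genes fell and 11.5% rose, with a median log2 fold change of -0.03. Of the 3 that fell, Il7r and Ccr7, a chemokine receptor gene, had a mean of at least 1 FPKM only with DMSO. For these genes the filter on low values favoured a fall. Satb1, the other that fell, was well above 1 FPKM in both groups. It fell from 19.8 ± 0.935 to 10.5 ± 0.841 FPKM (limma adjusted p = 2.08e-04). Ccr7 was at 1.82 ± 0.140 and 0.917 ± 0.192 FPKM. Il7r, the interleukin 7 receptor chain on which naive lymphocytes depend, fell from 1.90 ± 0.608 to 0.618 ± 0.290 FPKM (limma adjusted p = 0.0180), a call that ended without any one of 4 libraries (DMSO replicates 1 and 2, haloperidol replicates 2 and 3; adjusted p 0.0516 to 0.0687) and when low values were not filtered (adjusted p = 0.0552). Foxo1, a transcription factor that sustains Il7r in T cells, rose from 6.60 ± 0.619 to 9.44 ± 0.721 FPKM (limma adjusted p = 0.00733). Of 15 genes of T lineage transcription factors, 13 were tested, 4 fell and 0 rose (30.8%, against 13.0% lower over all genes), with a median of -0.25. One of the 4, Tcf7, a T cell factor gene, had a mean of at least 1 FPKM only with DMSO (2.56 ± 0.423 and 0.963 ± 0.380 FPKM). Myb, a regulator of progenitors and thymocytes, fell from 138 ± 8.59 to 80.7 ± 7.37 FPKM, and Hes1, a Notch target, from 210 ± 11.7 to 146 ± 9.15 FPKM (limma adjusted p at most 8.15e-04). Tal1, a stem cell and erythroid factor, fell with a log2 fold change of -0.55 (limma adjusted p = 0.0104), while Runx1 and Ets1, of the families whose motifs were searched above, had log2 fold changes of -0.25 and -0.27 (limma adjusted p = 0.102 for both).

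Other GTPase genes of immune cells, those of the interferon-inducible families, were compared side by side. Of 18, 12 were tested, 6 fell and 0 rose, where 13.0% of all genes fell, with a median log2 fold change of -0.31. Tgtp2 and Tgtp1, near-identical immunity-related GTPase genes whose reads are hard to tell apart, fell from 27.0 ± 2.01 to 15.99 ± 2.35 and from 8.55 ± 0.769 to 4.99 ± 0.136 FPKM. Gbp6 and Gbp8, of the guanylate-binding family, fell with log2 fold changes of -0.79 and -0.96, and Igtp and Gbp2 with -0.39 and -0.29 (limma adjusted p at most 0.0209). Gbp6 and Gbp8 had means of at least 1 FPKM only with DMSO, 1.697 against 0.554 FPKM and 2.36 against 0.708 FPKM, and both also passed when low values were not filtered (limma adjusted p = 0.0143 and 0.0323). Gbp6 was not tested without DMSO replicate 1. The call of Gbp2 ended without any one of 4 libraries, all but DMSO replicate 1 and haloperidol replicate 3 (adjusted p 0.0666 to 0.0769). It also ended when low values were not filtered (limma adjusted p = 0.0527). The others tested, such as Iigp1 at 13.2 ± 1.21 and 14.9 ± 3.98 FPKM, did not pass.

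Markers of cells that could carry Gimap transcripts through the sort are given beside these results. In each list, 13.0% lower and 11.5% higher over all genes are the shares to read it against. Of 11 T cell markers, 3 were tested and 1 fell, and their summed level was 39.2 to 46.1 FPKM with DMSO and 28.4 to 39.7 FPKM with haloperidol, most of it from Lat. The one that fell, Cd5, had a mean of at least 1 FPKM only with DMSO (1.56 against 0.641 FPKM, 86 and 35 reads over all libraries of a group). It also passed when low values were not filtered (limma adjusted p = 0.0214) and was not tested without DMSO replicate 1. Cd4, the coreceptor gene of helper T cells, had 129 reads with DMSO and 161 with haloperidol (1.20 ± 0.215 and 1.51 ± 0.238 FPKM) and did not pass (limma adjusted p = 0.357). Of the others, Cd8a had 0 reads in every library, Cd3e, Cd3d, Cd3g, Cd8b1 and Cd2 had 0 to 4 reads per group with DMSO and 0 to 6 with haloperidol, Zap70 had 12 and 8, and Trat1 16 and 8. Of 8 B cell markers, 2 were tested and 2 fell, with sums of 35.0 to 36.3 FPKM and 22.5 to 25.3 FPKM, mostly Cd79b. The other one that fell, Cd79a, had a mean of at least 1 FPKM only with DMSO (2.22 against 0.752 FPKM), and among those not tested Ebf1 had 48 and 25 reads, Fcer2a 19 and 12, Cr2 8 and 6, Ms4a1 6 and 2, and Pax5 1 and 0. Of 7 NK cell markers, 3 were tested and 0 passed by limma (2 at an unadjusted p below 0.05, 2 by limma voom). Their directions were opposite, with Klrd1 at 1.61 and 0.744 FPKM with DMSO and haloperidol and Prf1 at 1.15 and 2.24 FPKM. By limma voom 1 was lower and 1 higher. The sums of the 7 were 315 to 335 and 275 to 321 FPKM, mostly Nkg7. Among those not tested, Ncr1 had 4 and 0 reads, Gzma 8 and 1, Eomes 17 and 7, and Klrb1c 48 and 66. Of 14 endothelial markers, 8 were tested, 4 fell and 0 rose, with sums of 138 to 151 and 115 to 119 FPKM. The 4 were Esam (24.9 and 13.0 FPKM), Tie1 (14.5 and 10.1), Eng (21.6 and 16.1) and Emcn (4.92 and 3.83). Egfl7, Pecam1, Tek and Plvap did not pass (limma adjusted p at least 0.345). Several of the 14 markers are also expressed by stem cells. Of the 6 not tested, Cdh5, the endothelial cadherin gene, had 0 reads with DMSO and 3 with haloperidol, Kdr, a receptor for vascular endothelial growth factor, had 43 and 5, Cldn5 had 29 and 17, Vwf 192 and 168, Stab2 5 and 12, and Flt4 13 and 16. The part of these cell types in the Gimap values was not tested. The gate genes Kit and Ly6a did not pass (limma adjusted p = 0.396 and 0.861).

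Markers of blood stem cells and lymphoid-primed progenitors, both part of the LSK fraction, are also given. Each list here is again to be read against 13.0% lower and 11.5% higher over all genes tested. Of 11 stem cell markers, 10 were tested, 5 fell and 0 rose, with sums of 356 to 369 FPKM with DMSO and 263 to 285 FPKM with haloperidol. Of 11 markers of lymphoid-primed progenitors, 10 were tested, 7 fell and 2 rose, with sums of 1057 to 1082 and 758 to 817 FPKM. Of these 7, Rag2 (2.36 and 0.177 FPKM), Il7r and Ccr9 (3.62 and 0.961 FPKM) had means of at least 1 FPKM only with DMSO. The others that fell had means above 1 FPKM in both groups. With DMSO and haloperidol, Ighm was at 262 and 102 FPKM and Dntt at 337 and 194 FPKM. Cd27 was at 114 and 78.6 FPKM and Satb1 at 19.8 and 10.5 FPKM. Whether a different mix of these cells takes part in the Gimap values was not tested. Sums for monocytes, macrophages and dendritic cells were 267 to 305 and 220 to 248 FPKM (8 tested, 3 fell, 1 rose). The 3 that fell were Cd74 (148 and 73.0 FPKM), H2-Aa (25.1 and 11.2 FPKM) and C1qc. C1qc had a mean of at least 1 FPKM only with DMSO. Cd68 rose from 16.2 to 44.9 FPKM (limma adjusted p = 3.21e-05). Neutrophil sums were 166 to 280 and 173 to 305 FPKM (9 tested, 0 fell, 1 rose). Sums for erythroid cells were 3609 to 4771 and 4170 to 5505 FPKM (9 tested, 1 fell, 0 rose). Those for stroma were 28.4 to 33.2 and 33.5 to 35.8 FPKM (3 tested, 0 fell, 1 rose). Bglap, of stroma, was at 0 in every library.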

How the data were processed

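RNA sequencing of 6 libraries was analysed. The authors deposited FPKM values, 1 column per library with 38926 rows and 0 columns of other samples. Per the submitters' processing notes, HTSeq 0.6.1, TopHat2 2.1.1, DESeq2 1.18.1 and bcl2fastq 2.19.1.403 were used with mm10; annotation, counting options and FPKM formula are not stated there. cDNA was made with a SMART-Seq v4 kit and libraries with Nextera XT, per the labels' protocols, and these keep no strand.

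Whole reads were recovered from the FPKM steps: 100.0% of values above 0 came out whole within 0.001 reads, and the scale of the libraries matched size factors computed from them by median of ratios. Reads give depth and one alternative; the test used FPKM.

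limma 3.58.1 in R 4.3.3 was fitted to log2(FPKM + 1) of rows with a mean of at least 1 FPKM (11436), with a trend and no covariate, two-sided, Benjamini-Hochberg adjusted over all rows, at 0.05. Fold changes on this scale understate those of low genes. The fit was tested on simulated data. Of all genes, 2807 (24.5%) passed.

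Members and lists were chosen with earlier results of these data known. Named are all Gimap rows, the 5 nearest named rows on each side, the 5 genes most correlated with the summed level, Kit, Ly6a and, of each list, up to 3 members of smallest p and 2 of highest DMSO mean, of which a selection is printed. Bcl2, Bcl2l1, Gabarapl2, Gsk3b, Il7r, Tal1, Runx1, Ets1, Gbp8, Iigp1, Ccr7, Tcf7, Rag2, Ccr9, C1qc and further T cell, B cell, NK cell and endothelial markers were named beyond this rule, with their values seen. Positions, transcripts and promoters come from RefSeq (GRCm38.p6) and GENCODE M21 (GRCm38); all 8 members matched.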

Additional observations from a re-analysis of the deposited data

How the results depend on the processing

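In all, 15 planned settings and 1 added after seeing the data (limma voom on recovered reads) were run. Gimap1, Gimap5, Gimap6 and Gimap7 passed in 16 of 16, Gimap4 in 13 of 15, Gimap8 in 10 of 15, Gimap3 in 3 of 15 and Gimap9 in 0 of 16. At a mean of at least 5 FPKM, Gimap3, Gimap4 and Gimap8 were not tested. No member changed sign in the settings run. The log2 fold change of Gimap3 depended most on the pseudocount, at -0.82 with 1 and -1.72 with 0.01.

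The number of members past the threshold, all of them lower, was between 4 and 7 over these settings, and the same range was seen when a library was left out, with 4 without DMSO replicate 2 or haloperidol replicate 2. Of all genes, 2807 passed, and 1814 to 2160 when a library was left out, the fewest without DMSO replicate 2. The cause was not tested, but fewer libraries were fitted. Upper quartile scaling moved the median fold change by 0.02 and rescaling to a common sum by -0.02 on the log2 scale.

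Of 40 other genes followed through the settings, 25 were called; the call held in every setting for 20 and ended in at least 1 for 5 (AI854703, Zfp467, Malsu1, Il7r and Gbp2), and 4 others passed in at least 1 (Aoc1, Gabarapl2, Runx1 and Ets1).

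With the replicate number as a block, 2552 genes and 7 members passed. Deviations of libraries with the same number correlated at 0.01, 0.05 and 0.02 for numbers 1, 2 and 3. Those of libraries with different numbers correlated at -0.09 to 0.06. With 3 libraries per group, these values cannot tell whether libraries of the same number were handled together. edgeR and DESeq2 were planned but not run, and limma voom was the one fit made on the recovered reads. For the genes under 5 FPKM, the low number of reads limits what can be seen.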

Other observations

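The 5 genes outside the family whose log2(FPKM + 1) followed the summed Gimap level most closely over the 6 libraries were Ppp1r15a, Tnfaip8l1, Il21r, Armcx3 and Gfi1b, with Pearson correlations of 0.997 to 0.999. Of 11428 genes compared, 539 had a correlation of at least 0.95, and with 3 libraries in each of 2 separate groups such values mostly restate the difference between groups. Ppp1r15a, a phosphatase subunit of the stress response, was at 225, 213 and 219 FPKM with DMSO and at 128, 131 and 131 FPKM with haloperidol. Il21r, the interleukin 21 receptor gene, was at 75.1, 70.2 and 73.4 FPKM and at 25.1, 27.3 and 26.2 FPKM. Tnfaip8l1 fell from 23.2 ± 2.08 to 9.05 ± 0.682 FPKM and Armcx3 from 24.7 ± 0.782 to 18.7 ± 0.533 FPKM (SD, n = 3 each, limma adjusted p at most 0.00204).

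The table has no row for Gimap1os or for Gm28053, a GENCODE gene model that spans Gimap7, Gimap1 and Gimap5. Its transcripts share 4.78% of the 50-base stretches of Gimap1, 2.50% of those of Gimap5 and 1.39% of those of Gimap7.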
